A study of Rattus norvegicus with 4 samples.

Results

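m6A (N6-methyladenosine) peaks that were listed in the arcuate nucleus of the hypothalamus (ARC) of female rats at 3 weeks, and that shared no base on the same strand with any peak listed at 5 weeks, numbered 4836 of the 29653 3-week peaks (16.3%, 95% Wilson interval 15.9 to 16.7%). They are called 3-week-only peaks here. Peaks were called by MeRIP-seq, in which fragmented RNA is pulled down with an antibody against m6A (IP) and set against the untreated fragments (input). The study compared early pubertal rats of 5 weeks (35 days, labelled ARC_352) with prepubertal rats of 3 weeks (21 days, labelled ARC_212). All were untreated Sprague-Dawley females, and the ages were read from the study's methods because the labels carry only these codes. Each age was 1 pool of ARC tissue from 3 rats with 1 IP and 1 input library, 4 libraries in all, and without a second pool no contrast of ages could be checked against replicates. The peaks were chosen by the calls of both lists, that is, by a listed peak at 3 weeks and none at 5 weeks. Their enrichment, p and length are therefore descriptions, and a peak missing from a list was not measured as absent. The p given for a peak is the one listed by the authors' peak caller for that IP and input library, and it does not measure the spread between animals. Neither list holds input levels, so the amount of a transcript and the methylation of it cannot be told apart, nor can fewer cells of a type and less RNA per cell. For the same reason the tissue label could not be checked by expression: of 8 genes that define ARC neurons, Npy, Pdyn and Cartpt held 5 of the 3-week peaks, none of them 3-week-only, and Pomc, Agrp, Kiss1, Tac3 and Ghrh held none.

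m6A is written onto mRNA by a complex around METTL3 and METTL14, at adenosines inside the RRACH motif (R is A or G, H is A, C or U), and it is read by YTH proteins that bear on the decay and translation of the transcript. Its peaks are known to cluster around stop codons and in long internal exons. FTO and ALKBH5 remove the mark. The ARC holds the neurons that gate the onset of puberty through kisspeptin, neurokinin B and dynorphin, and those that sense energy stores.

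The 5 3-week-only peaks in microRNA genes lay in genes whose mature microRNAs are listed in RefSeq (GRCr8), and these are shown here. No genome of the peaks' build was used, so they are not the sequences of the peaks. Whether a mature microRNA carries m6A was not tested. All 5 matched by symbol. They are shown because 5 of the 6 3-week peaks in microRNA genes were 3-week-only, and they were named after their values were seen. The capitals mark the seed, bases 2 to 8, which pairs with target mRNAs.
rno-miR-219a-5p (Mir219-2): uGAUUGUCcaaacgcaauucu
rno-miR-219a-2-3p (Mir219-2): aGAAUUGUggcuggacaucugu
rno-miR-219a-1-3p (Mir219a1): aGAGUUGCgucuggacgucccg
rno-miR-9b-5p (Mir3597-2): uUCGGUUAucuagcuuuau
rno-miR-9b-3p (Mir3597-2): aUACAGCUagauaaccaa
rno-miR-1843b-5p (Mir1843b): aUGGAGGUcucugucugacuuag
rno-miR-1843b-3p (Mir1843b): uCUGAUCGuuccccuccauac
rno-miR-3556b (Mir3556b): aCCGAUUUcaaauggugcua
No pair of the sequences listed shares a seed. The Mir219a1 hairpin, however, also holds all the bases listed for rno-miR-219a-5p, which is shown under Mir219-2 only. miR-219 is known in rodents for promoting the maturation of oligodendrocytes, the cells that make myelin.

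The hairpin of Mir219-2, from which both of its mature arms are cut, is shown in full because this gene held a 3-week-only peak and no 5-week peak was listed under a Mir219 name. Capitals mark its single RRACH word, which lies in the 3p arm.
Mir219-2 hairpin: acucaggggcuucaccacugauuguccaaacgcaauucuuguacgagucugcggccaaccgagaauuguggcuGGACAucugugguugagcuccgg
The words searched, on the strand of the hairpin, were AAACA or AAACC or AAACU or AGACA or AGACC or AGACU or GAACA or GAACC or GAACU or GGACA or GGACC or GGACU. Of 419 rat hairpins in RefSeq, 263 (62.8%) hold at least 1 of them, so a word in a hairpin is common and is no evidence of a methylated site. The peak of Mir219-2 was listed at 3:13118622-13118722 on the + strand, with a log2 enrichment of 5.06, whereas RefSeq places the hairpin on the - strand of its own build. Whether the listed peak lies on the strand of this hairpin was not tested. Mir219a1 had a peak at log2 6.24 with a listed p of 0.00131, and Mir3597-2 had one at log2 2.89 with a listed p of 1.10e-07. All of these positions are as listed, without a named build. At 5 weeks microRNA genes had 4 peaks, of which 3 had no 3-week partner, so few partners were found in either direction.

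Other small RNA genes held 3-week-only peaks too. Of the 3-week peaks in ribosomal RNA genes 9 of 14 were 3-week-only, with log2 enrichments of 4.22 to 11.12. In small nuclear RNA genes 10 of 24 were, with log2 enrichments of 3.40 to 10.09, and in small nucleolar RNA genes 1 of 3 was. Together with the microRNAs this made 25 of 47 peaks (53.2%), against 16.3% over all 3-week peaks. Short peaks of any kind were often 3-week-only, at 44.7% for spans up to 200 bases, and length was not matched here. At 5 weeks 2 of 8 ribosomal, 4 of 18 small nuclear and 2 of 4 small nucleolar RNA peaks had no 3-week partner. Over all 5-week peaks that share was 24.9%. These genes have near-identical copies, so reads may be split between them and their values are uncertain. For long non-coding RNAs 286 of 1141 peaks were 3-week-only (25.1%), and for protein-coding genes 4489 of 28276 (15.9%). On the chromosomes numbered 1 to 20 and X the share lay between 13.5% on chromosome 17 and 17.9% on chromosome 13, and 0 of 14 mitochondrial peaks were 3-week-only.

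The 3-week-only peaks were weaker and shorter than the 24817 3-week peaks with a 5-week partner. Their median log2 enrichment was 2.58 (a 5.98-fold enrichment of IP over input), with quartiles of 2.23 and 3.34, against 3.33 (10.04-fold), with quartiles of 2.53 and 4.40, for peaks with a partner. The listed span had a median of 227 bases against 1260 bases, and 66.6% of 3-week-only peaks were at most 400 bases long, against 25.1% of peaks with a partner. The authors' p had a median of 7.39e-06 against 4.16e-30. In the 3-week list, whose largest p was 0.0497, 4614 of the 4836 3-week-only peaks (95.4%) had an adjusted p under 0.01. Among peaks with a partner it was 99.3%.

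**Figure D1:**
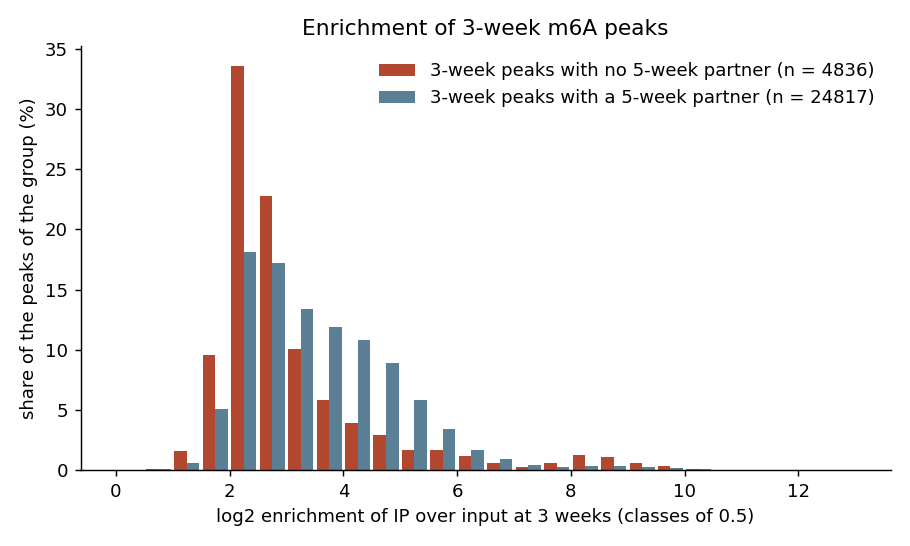
Log2 enrichment of IP over input at 3 weeks on the x axis, in classes of 0.5, and the share of each group's peaks in percent on the y axis, for 4836 3-week peaks with no 5-week partner and 24817 with one. The 3-week-only peaks gather around their median of 2.58 and have a second, small rise above a log2 of 8, where 3.52% of them lie against 1.41% of the peaks with a partner.

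That second rise held 170 3-week-only peaks in 161 genes, 123 of them at most 400 bases long. Their p lay between 3.39e-16 and 5.92e-05, with a median of 1.15e-05, so the highest folds here did not go with the smallest p. The highest among those with an adjusted p under 0.01 were an rRNA gene, LOC120095374 (log2 11.12, a listed p of 2.73e-08), and Tmlhe, which encodes an enzyme of carnitine synthesis (log2 10.66, a listed p of 1.60e-07). After a long non-coding gene model, ENSRNOG00000065796 (log2 10.50), came LOC102556157 (log2 10.33) and Trdn, a component of the calcium release complex of muscle (log2 10.22, a listed p of 3.70e-07). Of the 170 peaks, 88 lay in genes with no 5-week peak.

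Across all 3-week peaks the share that were 3-week-only was highest for short and for weak peaks. It was 44.7% for spans up to 200 bases and 24.7% above that up to 400 bases, then 8.86% up to 1000 bases, 8.93% up to 5000 bases and 6.49% for longer ones. In 10 classes of equal size by log2 enrichment it was 27.4% in the lowest and 27.8% in the next, then lower in each class down to 5.60% in the ninth, and 13.9% in the top class, which starts at a log2 of 5.30.

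**Figure D2:**
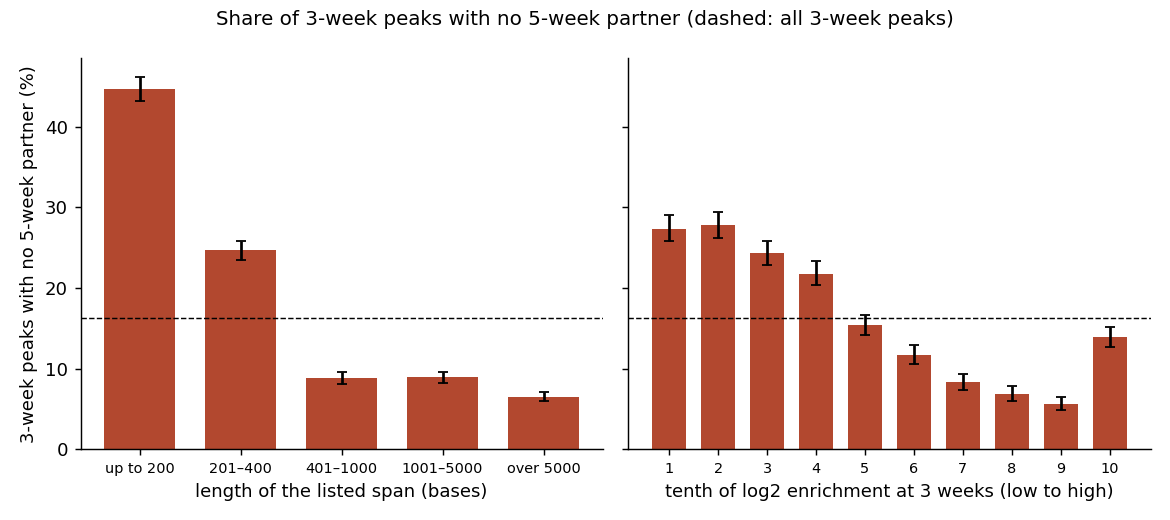
Share of 3-week peaks with no 5-week partner in percent on the y axis, by class of listed length in bases (left) and by class of log2 enrichment at 3 weeks from low to high (right, 10 classes of equal size), with 95% Wilson intervals as error bars and the share over all 3-week peaks, 16.3%, as a dashed line. Spans up to 200 bases stand at 44.7%, and the top class of enrichment turns upward to 13.9% after 5.60% in the ninth.

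For comparison, the 5-week list held 8238 of 33056 peaks with no 3-week partner (24.9%). The 3-week-only peaks were more enriched and shorter than these, with a median log2 of 2.58 against 2.24 and a median span of 227 against 326 bases. Higher enrichment at 3 weeks was not particular to them. Peaks with a partner at the other age had a median log2 of 3.33 at 3 weeks and 3.07 at 5 weeks. Their median spans were 1260 and 1151 bases.

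By region of the transcript, the largest contrast was at the stop codon, where 3-week peaks with a partner were common and 3-week-only peaks were few. Stop codons held 290 of the 4836 3-week-only peaks (6.0%, 95% interval 5.36 to 6.70%), against 28.2% (27.6 to 28.8%) of the peaks with a partner. The 5′ UTR held 732 (15.1%, 14.2 to 16.2%), against 6.76% (6.45 to 7.08%), and the 3′ UTR held 1619 (33.5%, 32.2 to 34.8%), against 24.8% (24.3 to 25.4%). Exons of coding sequence held 1543 (31.9%) against 27.0%, exons of non-coding RNAs 347 (7.18%) against 4.15%, and start codons 299 (6.18%) against 8.91%. Introns held 6 3-week-only peaks. A low stop codon share was not particular to the 3-week list: the peaks listed only at 5 weeks had 6.80% at stop codons, but 9.54% in the 5′ UTR and 40.0% in coding exons. Read the other way, 30.4% of 3-week peaks in the 5′ UTR were 3-week-only, 25.2% in non-coding RNA exons, 20.8% in the 3′ UTR, 18.7% in coding exons, 11.9% at start codons and 3.98% at stop codons.

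**Figure D3:**
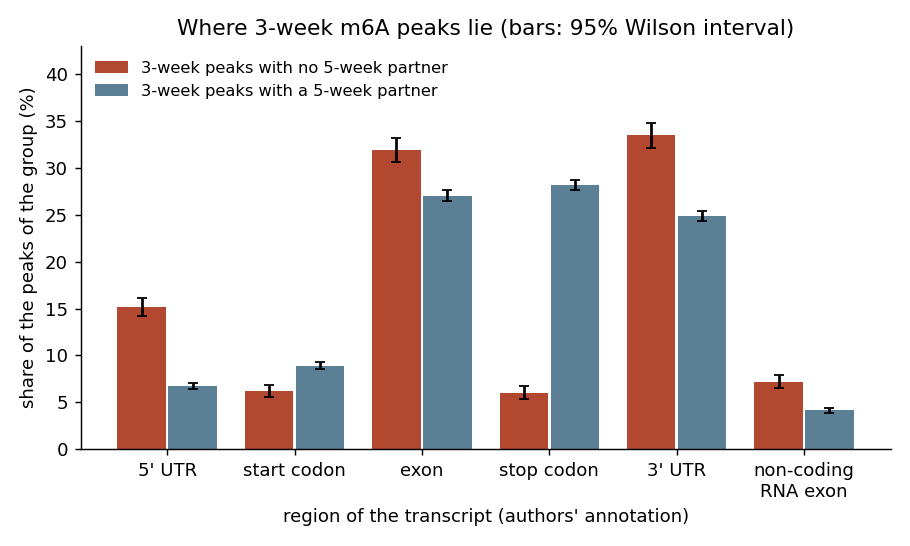
Share of each group's peaks in percent on the y axis by region of the transcript, as the authors annotated it, on the x axis, for 3-week peaks with no 5-week partner (first bar) and with one (second bar), with 95% Wilson intervals over peaks. The stop codon bars are furthest apart, at 6.0% and 28.2%, and in the 5′ UTR the order is the other way, at 15.1% and 6.76%.

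Length and enrichment also differ by region, and both moved with these shares. Among peaks of at most 400 bases the 3-week-only share was 34.1% over all regions, 46.8% in the 5′ UTR (43.8 to 49.8%), 30.9% in the 3′ UTR (29.6 to 32.3%) and 21.4% at stop codons (18.8 to 24.3%). Among longer peaks it was 18.0% in the 5′ UTR, 5.44% in the 3′ UTR and 1.65% at stop codons, in the same order. Start codons and coding exons stood above the 3′ UTR within both length classes, at 38.6% and 38.4% among short peaks and at 7.70% and 13.2% among longer ones, and below it only with the lengths pooled. With the peaks that have a partner reweighted to the enrichment of the 3-week-only peaks, their stop codon share was 19.9% instead of 28.2%. The same step moved their 3′ UTR share to 30.5% and their exon share to 30.1%, near the 33.5% and 31.9% of the 3-week-only peaks, while their 5′ UTR share stayed at 6.86%. Within the 3-week-only peaks, those in the 3′ UTR were the weakest, with a median log2 of 2.37 and a median length of 176 bases, and those in non-coding RNA exons had a median log2 of 2.91.

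Most 3-week-only peaks lay in the same gene as the nearest peak listed at 5 weeks, at distances that varied widely. The nearest 5-week peak on the same strand was a median of 1024 bases away, with quartiles of 224 and 10386 bases. It was within 100 bases for 748 (15.5%), within 1000 bases for 2411 (49.9%) and over 10000 bases away for 1227 (25.4%). In 3869 cases (80.0%) it lay in the same gene. Among these the 3-week-only peaks in the 3′ UTR mostly lay downstream of their nearest 5-week peak, 1048 downstream and 350 upstream, whereas those in the 5′ UTR lay upstream of it in 570 cases and downstream in 97. Those in coding exons lay upstream in 908 cases and downstream in 323. A 5′ UTR opens a transcript and a 3′ UTR ends it, so position alone sets much of the order for UTR peaks. For those in coding exons the nearest 5-week peak was at the stop codon in 330 cases and in the 3′ UTR in 197. It was at the start codon in 55, in the 5′ UTR in 40 and in a coding exon in 607. Position thus bears on the order of exon peaks too. Peaks with a partner were not compared in this way. The nearest 5-week peak of a 3-week-only peak in the 3′ UTR was itself in the 3′ UTR in 783 of 1398 cases and at the stop codon in 426.

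**Figure D4:**
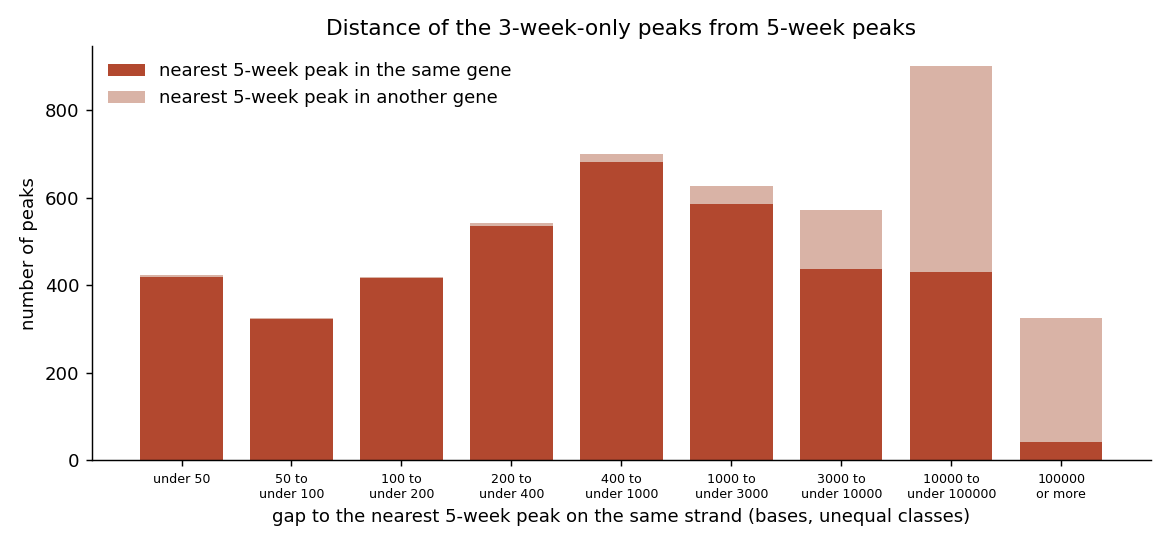
Gap in bases from each 3-week-only peak to the nearest 5-week peak on the same strand, in unequal classes on the x axis, and the number of peaks on the y axis, split by whether that 5-week peak lies in the same gene. Within 100 bases nearly all nearest peaks are in the same gene, and at 100000 bases or more most are in another gene.

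The rule turns on a single base, and of the 748 gaps up to 100 bases 747 were 24, 49, 74 or 99 bases. The 209 3-week-only peaks nearest to a 5-week peak had a gap of 24 bases and a median log2 of 2.46. Just outside the rule, 167 3-week peaks shared exactly 1 base with a 5-week peak when both listed ends were counted in. Their median log2 was 2.57. With starts counted from 0, these peaks touch the 5-week peak without sharing a base. Of the 3-week peaks, 3397 started 1 base before the listed gene start and 0 at it, as if starts were counted from 0. Examples of peaks just outside are Nisch (log2 2.51), Sec22b (2.37) and Lhfpl4 (2.41), whose 5-week neighbours had log2 enrichments of 3.50, 2.25 and 3.05.

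The 4836 peaks lay in 3845 genes, 28.5% of the 13485 genes with a 3-week peak. In 2906 of these genes another 3-week peak did have a 5-week partner. In 259 all 3-week peaks were 3-week-only, and the 5-week list placed a peak elsewhere in the gene. In 680 genes (5.04% of all genes with a 3-week peak) every 3-week peak was 3-week-only and no 5-week peak was listed. Of all genes with a 3-week peak, 701 (5.2%) had no 5-week peak. The 823 peaks in the 680 genes had a median log2 of 3.39, against 2.51 for the 4013 3-week-only peaks in other genes. In 1450 of the 3845 genes (37.7%) the 5-week list had a peak with no 3-week partner, against 32.0% of the other genes with a 3-week peak. Genes with more peaks have more chances of both, and the number of peaks per gene was not matched. Most genes held 1 3-week-only peak (3049 genes), 643 held 2, 124 held 3, 21 held 4 and 8 held 5 or more.

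Of the 12 3-week-only peaks with the smallest p, all but those of Ctsb and ENSRNOG00000066402 lay in genes that also had 5-week peaks. Ptms, encoding the small acidic protein parathymosin, had one of 226 bases in its 3′ UTR (4:157722385-157722610) at log2 2.89 with a p listed as 0, and its nearest 5-week peak lay 124 bases away with log2 4.59. Thy1, a surface glycoprotein of neurons, had an exonic peak at log2 2.31, and Cnp, an enzyme of myelin, a stop codon peak at log2 2.19, both with a p listed as 0 and with 5-week peaks 525 and 49 bases away. Hsp90aa1, a stress-inducible chaperone, followed with log2 2.17 (a listed p of 1.46e-237), and Spock2, a brain proteoglycan, with log2 2.30 (a listed p of 1.19e-207). Rap1gds1, an exchange factor for small GTPases, had log2 2.23, and Alg2, an enzyme of N-glycan synthesis, log2 2.42. Mapk8ip3, a scaffold for JNK signalling and axonal transport, had log2 2.76, and Gde1, a phosphodiesterase, log2 2.29. In AABR07051450.1, an unnamed gene model, it was 2.73.

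The exceptions were Ctsb, encoding the lysosomal protease cathepsin B (3′ UTR, 15:37410168-37410268, log2 2.33, a listed p of 1.24e-101), and the non-coding gene ENSRNOG00000066402 (log2 2.23, a listed p of 4.10e-125). In the table of both ages, the regions overlapping them had log2 enrichments of 1.76 at 5 weeks and 2.36 at 3 weeks for Ctsb, and of 1.31 at 5 weeks and 2.34 at 3 weeks for ENSRNOG00000066402. The table thus gives enrichment at both ages where only the 3-week list has a peak.

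Some genes carried many 3-week-only peaks. ENSRNOG00000065195 held 9 among its 17 3-week peaks, with log2 enrichments of 2.62 to 5.81, and ENSRNOG00000064486 held 6 of 9, at 2.80 to 9.32. Selplg, the P-selectin ligand of leukocytes and microglia, held 5 of its 6 3-week peaks along its 3′ UTR, at log2 2.59, 4.58, 4.82, 5.24 and 8.63, and had 2 peaks at 5 weeks. Pcdha5 of the protocadherin alpha cluster held 5 of 22, Speg, a striated muscle kinase, 5 of 9, and Ssh1, a phosphatase that activates cofilin, 5 of 8. Alpha protocadherin transcripts share exons, so reads listed under Pcdha5 may belong to other members of the cluster.

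Among the genes without any 5-week peak, 121 held 2 or more 3-week-only peaks. Gata3, a transcription factor of T cells and of some GABAergic neurons, held the most of these genes. Its 5 peaks covered the gene between the start and stop codons, with log2 enrichments of 3.60, 2.65, 3.40, 3.31 and 4.75 in that order, and the last, at 17:68653721-68664820, had a listed p of 1.32e-36. The nearest 5-week peak lay 36465 bases from the first of them, in Atp5f1c. Crybg1 held 4 exonic peaks at log2 4.00 to 5.69, Myh4, a myosin of fast muscle fibres, 4 at 3.24 to 8.04, and the gene model ENSRNOG00000068856 4 at 3.33 to 9.34. Usp43, a ubiquitin protease, held 3, of which the one at its stop codon had log2 4.41 and a listed p of 1.21e-50. Vom1r19, a vomeronasal receptor, held 3 with up to log2 6.54, Dcaf12l2 3 with up to 7.95, and Map3k6, a kinase of stress signalling, 3 with up to 7.85. The table of both ages overlapped peaks in 3 of these genes. It gave -0.89 and 1.52 at 5 weeks against 4.22 and 4.14 at 3 weeks for Dcaf12l2, 2.92 at 5 weeks against 5.62 at 3 weeks for Crybg1, and 3.40 at 5 weeks against 8.09 at 3 weeks for Myh4.

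The table of both ages lists the enrichment at 5 and at 3 weeks for 12704 regions, which the authors kept where their p between the ages was under 0.05. Regions of this table were thus selected for a difference. It overlapped 656 of the 3-week-only peaks (13.6%), against 44.9% of the 3-week peaks with a partner and 39.8% of all 3-week peaks. At these 656 peaks the median log2 enrichment was 1.36 at 5 weeks (quartiles 0.92 and 1.74) and 3.45 at 3 weeks (quartiles 2.89 and 4.53), with a median difference of 5 weeks minus 3 weeks of -2.27. At the 3-week peaks with a partner that the table also holds, the medians were 3.24 at 5 weeks and 4.13 at 3 weeks, with a median difference of -0.94. The difference was -1 or less for 579 of the 656 (88.3%), against 46.9% of all regions in the table. It was 1 or more for 46 (7.01%), against 10.6% of all. Since the rule took peaks by their absence from the 5-week list, these differences describe the choice and are no result of their own. At 5 weeks the enrichment was 0 or more on the log2 scale at 623 of the 656 (95.0%), of which 460 were at 1 or more. It was below 0 at 33, against 0.354% of all regions in the table. The regions of this table rarely had the limits of the peak itself: 69 of the 656 (10.5%) had the same coordinates, with a median of 1.52 at 5 weeks and 4.05 at 3 weeks. For 28 the overlapping region of the table reached a listed 5-week peak. The other 628 regions reached none, and of these 595 had a 5-week enrichment of 0 or more and 33 one below 0.

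**Figure D5:**
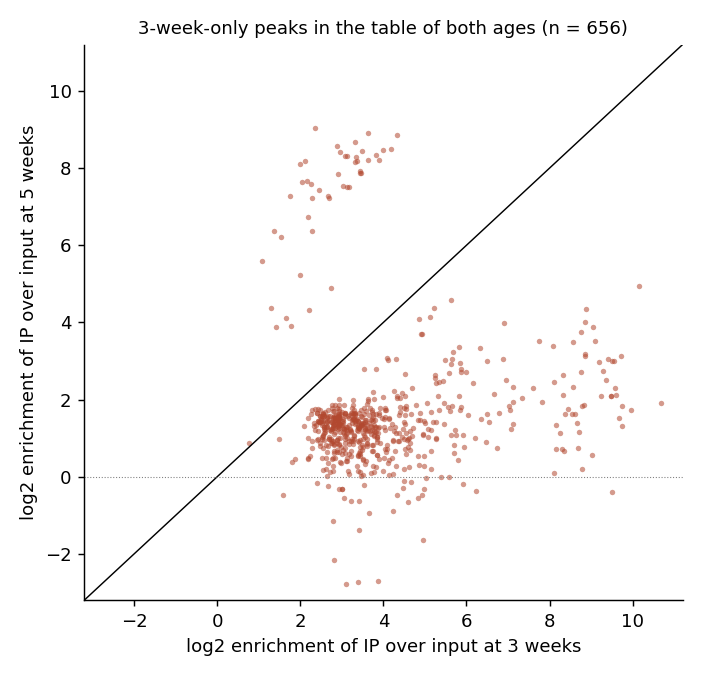
Log2 enrichment of IP over input at 5 weeks on the y axis against that at 3 weeks on the x axis, for the 656 3-week-only peaks that overlap a region of the table of both ages (1 point each), with the line of equal values and a dotted line at 0. Most points lie below the line of equal values, around 1.36 at 5 weeks and 3.45 at 3 weeks, and 46 lie at least 1 above it.

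The lowest 5-week values were in LOC100910577, at -2.78 at 5 weeks and 3.09 at 3 weeks, in the 5′ UTR of Tafa2, a secreted neural factor, at -2.73 and 3.39, and in an exon of Acan, the aggrecan of perineuronal nets, at -2.71 and 3.87. Il12rb2, a subunit of the interleukin 12 receptor, had -2.15 at 5 weeks and 2.82 at 3 weeks. The stop codon of Tfap2b, a transcription factor of the neural crest and of some GABAergic neurons, had -1.64 at 5 weeks and 4.96 at 3 weeks, and Ube2j1, a ubiquitin-conjugating enzyme of the endoplasmic reticulum, -1.38 and 3.42. Acan held 4 3-week-only peaks among its 7 and had 4 peaks at 5 weeks. Tfap2b had no 5-week peak.

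The 46 peaks with the opposite order had 5-week values of 3.88 to 9.03 and 3-week values of 1.09 to 4.32, each in a gene of its own. The highest were in Dnmbp, a scaffold of dynamin, at 9.03 at 5 weeks and 2.34 at 3 weeks, ENSRNOG00000064824 at 8.92 and 3.63, and Ccdc18 at 8.85 and 4.32. Shb, an adaptor of receptor tyrosine kinases, followed at 8.68 at 5 weeks and 3.32 at 3 weeks, then Ano5, a membrane protein of muscle, at 8.57 and 2.88, and Tonsl, a factor of replication repair, at 8.48 and 4.18. Of the 46, 3 had a table region that reached a listed 5-week peak, among them Dnmbp and Shb, and 43 had one that reached none. Only 6 had the coordinates of the peak itself, among them Tonsl.

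Among the genes of m6A itself, Mettl3 and Mettl14 held no 3-week-only peak. Of the writer list, 4 of 20 3-week peaks were 3-week-only (20%, 8.07 to 41.6%), an interval that holds the 16.3% over all 3-week peaks: in Virma, its large scaffold (exon, log2 2.30), Zc3h13 (3′ UTR, 2.12), Rbm15 (3′ UTR, 2.25) and the separate methyltransferase Mettl16 (3′ UTR, 2.31). Of the erasers and readers it was 3 of 33 (9.09%, 3.14 to 23.6%, which also holds it), with 1 in the 5′ UTR of Alkbh5 (log2 2.89) and 2 in Hnrnpa2b1. Fto had 2 3-week peaks, and neither was 3-week-only. Each gene named here with a 3-week-only peak also had a 5-week peak.

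In the pathways the study followed, Bdnf had 1 3-week peak, with a 5-week partner, and so gave no 3-week-only peak. Of the BDNF and Trk signalling list 10 of 63 3-week peaks were 3-week-only (15.9%), against 16.3% over all 3-week peaks. Creb1, the transcription factor downstream of Trk receptors, held 3 along its 5′ UTR at log2 1.82, 2.50 and 2.54, and had 5 peaks at 5 weeks. Ntf3, the neurotrophin NT-3, had an exonic one at log2 8.98, and Sos1 and Sorcs2 had 1 each. Of the PI3K/Akt/mTOR list it was 14 of 65 (21.5%, 95% interval 13.3 to 33.0%), an interval that holds that share of all 3-week peaks, 16.3%. Pik3cd, the delta catalytic subunit of PI3K, held 4 of its 6 3-week peaks in this way, with log2 enrichments of 2.31, 2.31, 2.30 and 2.52. At the last of these the table of both ages gave 1.04 at 5 weeks and 3.85 at 3 weeks. Pik3r3, a regulatory subunit, held 2 in its 3′ UTR at log2 2.57 and 2.85, Mtor 1 at 2.16, and Pdpk1, the kinase that activates Akt, 1.

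Genes of puberty and GnRH control had 4 of 47 3-week peaks among the 3-week-only ones (8.51%, 3.36 to 19.9%), against 16.3% over all 3-week peaks, which this interval and those of the other lists named next hold. These were in Prokr2, the prokineticin receptor that GnRH neurons need to migrate in mice (exon, log2 4.47), Cbx7, a Polycomb protein (3′ UTR, 2.37), Erbb4 (exon, 2.41) and its ligand Nrg1 (5′ UTR, 4.36). The table of both ages gave 0.73 at 5 weeks and 6.74 at 3 weeks for Nrg1, whose listed span covers 858905 bases, introns included. Of the ARC neuropeptide and neuron genes it was 2 of 30 (6.67%, 1.85 to 21.3%). Trh, the thyrotropin-releasing hormone gene, had its single 3-week peak there (exon, log2 2.69, a listed p of 7.32e-07) and no 5-week peak, and Adcyap1, encoding the neuropeptide PACAP, had 1 in its 5′ UTR. In the same list 16 of the 41 5-week peaks (39.0%) had no 3-week partner, against 24.9% of all 5-week peaks. Glutamate and GABA receptor genes had 7 of 82 (8.54%, 4.2 to 16.6%), including Grin1, Grm2 and Grin2a, and axon guidance genes 13 of 127 (10.2%, 6.08 to 16.7%), including Plxnb1, a semaphorin receptor, whose stop codon peak had 1.36 at 5 weeks and 2.95 at 3 weeks.

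By cell type, the immature neuron list had 8 of 30 (26.7%, 14.2 to 44.4%), an interval that also holds 16.3%. All 8 lay in 3 genes of the 15 listed. Neurod2, a neuronal differentiation factor, held 3 at log2 3.16, 5.99 and 7.43 and had no 5-week peak. Dcx, the microtubule protein of migrating neurons, held 3 in its 3′ UTR, and Neurod1 held 2. The oligodendrocyte and myelin list had 10 of 58 (17.2%). Enpp6, a marker of newly formed oligodendrocytes, had both of its 3-week peaks there, at log2 2.54 and 4.39 (a listed p of 4.61e-14), and no 5-week peak. Cnp and Aspa, which mature oligodendrocytes express, and Mbp, a main protein of myelin, also had 5-week peaks. The Mbp peak had the lowest log2 of all 3-week-only peaks, 0.43, with a listed p of 6.99e-72, and the table of both ages gave 0.88 at 5 weeks and 0.76 at 3 weeks there.

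Few peaks of other cell types were 3-week-only. The intervals of all the lists in these counts hold the 16.3% over all 3-week peaks. Astrocyte genes had 3 of 25, in Slc1a3, Aldh1l1 and Gjb6, and endothelial and mural genes 3 of 29, in Tek, Pecam1 and Kdr. Microglia genes had 2 of 17, in Cx3cr1 and at the start codon of C1qa (log2 1.53 at 5 weeks and 3.98 at 3 weeks), and tanycyte and ependymal genes 1 of 20, in Dio2. Genes of the neighbouring ventromedial nucleus had 0 of 11 and the choroid plexus 0 of 9. Pituitary hormone genes had 1 of 2, at the stop codon of Lhb (log2 2.59), a gene with no 5-week peak. Immediate early genes had 2 of 30, in Npas4 and Ier2, and no Hox gene had a peak at either age. The part of cell makeup in these counts was not tested.

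Among larger families, collagens had 20 of 77 3-week peaks among the 3-week-only ones (26.0%, 17.5 to 36.7%), potassium channels 43 of 193 (22.3%, 17.0 to 28.7%), unnamed gene models 531 of 2418 (22%, 20.4 to 23.7%) and solute carriers 89 of 463 (19.2%, 15.9 to 23.1%). The intervals of the first 3 lie above 16.3%, and that of the solute carriers holds it. Peaks of 1 gene are not independent, so the intervals are too narrow. For collagens and unnamed gene models a raised share was not particular to 3 weeks. Of the 5-week peaks of collagens 46 of 105 (43.8%) had no 3-week partner, and of those of unnamed gene models 31.3%, against 24.9% of all 5-week peaks. Potassium channels were below that share at 5 weeks, with 35 of 199 (17.6%). Col4a3, a chain of basement membrane collagen, held all 4 of its 3-week peaks there at log2 2.45 to 3.51 and had 1 peak at 5 weeks. Kcnj6, the GIRK2 channel subunit, held 3 of 13 in its 3′ UTR, and Kcnab1, a beta subunit of voltage-gated channels, 3 of 4. In the opposite direction of share were respiratory chain subunits with 13 of 103 (12.6%), ribosomal proteins with 11 of 93 (11.8%), clustered protocadherins with 9 of 79 (11.4%) and Zfp genes with 100 of 691 (14.5%), all with intervals that hold 16.3%. The ribosomal pattern also takes S6 kinase genes, among them Rps6ka2, Rps6ka3 and Rps6ka5, and without them the share was 8.82% of 68 peaks. Histone genes had 5 of 28.

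Across 177 KEGG pathways with at least 100 3-week peaks, the median share of 3-week-only peaks was 16.3%, and the pathways lay between 9.71% and 26.2%. Prolactin signaling had the highest, with 28 of 107 peaks (26.2%), followed by Th1 and Th2 cell differentiation (24.2%), cytokine-cytokine receptor interaction (24%) and JAK-STAT signaling (22.9%). GABAergic synapse, with 16 of 163 (9.82%), was near the low end. PI3K-Akt signaling had 94 of 545 (17.2%) and neurotrophin signaling 41 of 242 (16.9%). GnRH secretion had 25 of 123 (20.3%) and GnRH signaling 28 of 191 (14.7%). No intervals were computed for the pathways. The genes below were chosen after their values were seen. In the prolactin pathway Sos2, an activator of Ras, held 4, all of 101 to 176 bases, and the kinase Mapk8 held 3. Stat5b, the transcription factor that prolactin activates, held 2 in its 3′ UTR at log2 2.03 and 2.23. Of the suppressors of cytokine signalling, Socs6 held 2, Socs5 and Socs7 1 each, and Socs1 its single 3-week peak (log2 5.14, a listed p of 0.00663), with none at 5 weeks. Pathways share genes, so these shares are not independent.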

How the data were processed

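Peaks of m6A were read from the authors' deposited list of each age, made from 1 IP and 1 input library of ARC pooled from 3 rats. The deposited log2 values are the authors' enrichment of IP over input, and each peak's p-value and adjusted p-value were also set by the authors' caller. The study's methods name Cutadapt, and the submitters' notes name fastp 0.19.4, HISAT2 2.0.4 and a human genome build, although the genes are rat Ensembl IDs. For the caller and the rat build, nothing was stated in the labels, the paper or the file headers. The largest listed p was 0.0497 at 3 weeks and 0.0496 at 5 weeks. The lists hold no counts or input levels, so depth and its precision are unknown, and spans can include introns.

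Overlap was computed (bedtools 2.31.1) for peaks of the same strand sharing 1 base, with listed intervals inclusive at both ends, and the step was tested on simulated intervals. The 95% Wilson intervals are for counting error among peaks only. No test was run, since each age had 1 library of a kind. The authors' table of both ages also holds their fold change and p between the ages, which were not used. Only its log2 enrichment at each age was read.

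The members and the gene lists were chosen with earlier results of these data known. Named peaks were those with the smallest p, the highest log2 enrichment at an adjusted p under 0.01, and the lowest and highest 5-week enrichment. Genes were named for the most members, for members with no 5-week peak, and, up to 4 per list, for the smallest p in 28 lists. Peaks just outside the rule were those with the smallest overlap. Any other gene is marked as picked with its values in view. KEGG terms are the authors', for pathways with at least 100 peaks, a limit that was also picked with the data in view. Alternatives changed the overlap, strand, gap, thresholds and rows per gene. Peak sequences were not read. Some genes that the rule names are left out of the text, though the counts hold them. Python 3.11.15 was used with numpy 2.4.6, pandas 2.3.3, scipy 1.17.1 and matplotlib 3.10.9.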

Additional observations from a re-analysis of the deposited data

How the results depend on the processing

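The number of 3-week-only peaks depended on what counts as a partner. The 4836 peaks (16.3%) became 7810 when at least 50% of the 3-week peak had to be covered, 12385 with a reciprocal overlap of 50%, 2425 when a 5-week peak within 1000 bases counted, and 825 when any 5-week peak of the same gene did. With 5-week peaks over 5000 bases left out as partners, an alternative chosen after seeing the data, it was 12430, so wide 5-week spans supplied many of the partners. Overlap on either strand, a 100-base gap, adjusted p under 0.01 in either list, a log2 of at least 2 and starts counted from 0 (5003 peaks, also chosen after seeing the data) kept it within 1.5 times. With 1 row per gene the stop codon share was 6.74% instead of 6.0%. The median log2 was 2.68 instead of 2.58 for peaks with no 5-week peak within 1000 bases. Of the lists with a share above that of all 3-week peaks, 10 in number, the writers and the oligodendrocyte list were no longer above it at 50% covered, where microglia and tanycyte genes were, and BDNF and Trk signalling joined with a 100-base gap. Exon blocks could not be compared, since the files used here give none. No paired analysis was possible because each group had 1 library. Depth was unknown, so no limit of detection could be given.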

Other observations

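Among the 3-week-only peaks with high enrichment and small p were genes that are best known outside the ARC, and these were chosen after their values were seen. Chrnb4, the beta 4 subunit of nicotinic receptors, had its single 3-week peak there (log2 4.05, a listed p of 1.51e-57). Chat, encoding choline acetyltransferase, had both of its 3-week peaks there, at log2 2.84 and 4.91, and the table of both ages gave 1.47 at 5 weeks and 4.89 at 3 weeks for the stronger one. Pou4f1, a transcription factor of the habenula and sensory ganglia, had both of its peaks there, at log2 4.05 and 1.85. None of these 3 genes had a 5-week peak. Over 10 markers of the medial habenula and of cholinergic neurons, 7 of 14 3-week peaks were 3-week-only, against 16.3% of all 3-week peaks, and none of their 9 5-week peaks lacked a 3-week partner. Chrnb4, Chat and Pou4f1, around which the list was made, hold 5 of the 7, so the count restates that choice. Chrna3, Chrnb3, Gpr151, Nr4a2 and Calb2 had peaks at both ages. In the GATA and TAL list, 5 of the 7 3-week-only peaks were those of Gata3, whereas Gata2 and Tal1 had peaks at both ages and none that were 3-week-only. The part of tissue makeup in these values was not tested.

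Genes of cell division and of muscle were looked at in the same way. Of 12 cell division genes, 8 of 15 3-week peaks were 3-week-only, against 16.3% of all, in Top2a (log2 3.94), Aurka (3.27), Birc5 (5.82 and 4.24), Ccnf (4.14 and 4.73), Cenpf (9.74) and Mki67 (4.19). Top2a, Aurka, Birc5 and Ccnf had no 5-week peak, Mki67 had 8, and Aurkb had 2 5-week peaks and none at 3 weeks. The cell division list was made after values had been seen, so its count is no result apart from that choice. Of 10 muscle genes, 14 of 22 were 3-week-only, with 4 in Myh4, 1 in Trdn, 2 in Fbxo40, 5 in Speg and 2 in Ttn. This list was made after Myh4, Trdn and Speg had been named for such peaks, and these hold 10 of the 14, so its count too restates the choice. Acta1, the skeletal muscle actin, had no 3-week-only peak, and Ckm had no peak at either age.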
